A study of Mus musculus with 4 samples.

Results

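Bach2 and Bach1 encode a pair of related transcription factors, and the deposited streptavidin ChIP-seq peaks at both loci are described here. Peaks were taken when their midpoint lay in the RefSeq gene body or within 50 kb on either side. The 2 windows held 8 of the 5198 peaks in the list from thymocytes of mice with a PLZF transgene (labelled Tg thy), 7 of them at Bach1 and 1 at Bach2. They held 3 of the 4246 peaks in the list labelled NKT, all at Bach1. The rule uses position only.

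The study mapped binding of PLZF, a BTB zinc finger factor that directs the innate-like program of natural killer T cells, in thymocytes of mice on a C57BL/6 background. Chromatin was captured on streptavidin beads. The library labelled Tg thy came from PLZF tg/BirA tg mice, which carry a PLZF transgene and a transgene for the bacterial biotin ligase BirA. The library labelled NKT came from PLZF tg/BirA tg/Valpha14 tg mice, which carry in addition a transgene for Valpha14, the T cell receptor alpha chain used by invariant natural killer T cells. Both groups carry the PLZF transgene, so neither shows binding of endogenous PLZF alone. The labels name thymocytes for both and give no sorting, age, number of animals or transgene promoter, so NKT names a library here and not a purified cell type. Each group had 1 library, so there is no replicate error and no test between libraries. Mice lacking this PLZF transgene were not analysed here, and a peak need not be a PLZF site. The loci of Cd3e, Cd4, Cd8a, Rag1, Ptcra and Themis, 6 thymocyte genes, all had peaks in both lists, as had 20.6% of all protein-coding genes. That describes listed peaks, which were not checked against the input libraries here, and not expression.

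BACH1 and BACH2 join a BTB domain, the protein interaction fold that PLZF also carries, to a CNC-type basic leucine zipper. They pair with small MAF proteins and mostly repress genes through motifs related to the AP-1 site. BACH1 is a haem sensor found in many tissues and holds down genes of haem, iron and oxidant handling. BACH2 is a lymphocyte factor that restrains effector differentiation of T cells, partly by repressing Prdm1, and is needed for the antibody response of B cells.

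The sequence just before the start site of each gene is shown first. No peak of either list covered it. The share of all promoter windows that a peak covered is not given here, so this sets neither gene apart. The sequences are from the RefSeq promoter table of GRCm38.p6 (named mm10 elsewhere), with the cytosine-guanine pairs (CpG) in capitals. Bach1 is read on the plus strand at chr16:87698704-87698953 and Bach2 on the plus strand at chr4:32417185-32417434. The CpG-dense Bach1 stretch holds 25 CpG in 250 bases, with 69.2% G and C. The Bach2 stretch holds 7 in 250 bases, with 50.4% G and C.
Bach1: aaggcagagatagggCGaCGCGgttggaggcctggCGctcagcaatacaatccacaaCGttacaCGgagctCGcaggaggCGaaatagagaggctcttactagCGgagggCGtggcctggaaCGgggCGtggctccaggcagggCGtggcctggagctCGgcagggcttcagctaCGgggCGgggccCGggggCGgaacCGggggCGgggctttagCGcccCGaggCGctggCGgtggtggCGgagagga
Bach2: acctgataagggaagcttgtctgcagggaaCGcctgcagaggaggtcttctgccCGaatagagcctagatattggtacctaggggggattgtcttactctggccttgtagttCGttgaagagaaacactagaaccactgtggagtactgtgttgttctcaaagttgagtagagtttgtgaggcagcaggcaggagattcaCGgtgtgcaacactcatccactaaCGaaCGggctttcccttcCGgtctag
The start listed for Bach2 lies 179.0 kb inside the gene record, which begins with the outermost RefSeq transcript. Which start thymocytes use was not measured. The letters TGANTCA, a core of the AP-1 and MAF recognition motifs that is its own reverse complement, occurred in neither 300-base promoter window (250 bases before and 50 after the start). Of all 32851 windows in the table, 7.81% held them. No genome sequence was used here, so the bases under the peaks themselves are not shown.

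At Bach1 (gene 12013, chr16:87698954-87733346, 34.4 kb, plus strand) a pair of strong peaks was listed at the same places in both libraries. Both lay inside the gene, toward its far end. The first was chr16:87725910-87726792 in the Tg thy list, 883 bp wide with a score of 345. In the NKT list it was chr16:87725956-87726519, 564 bp wide with a score of 245. The score is the value the authors deposited with each peak. It ranks peaks within a list, and a higher score in one list than in the other shows no change. The second was chr16:87728745-87729489 in the Tg thy list, 745 bp wide with a score of 318, and chr16:87728790-87729468 in the NKT list, 679 bp wide with a score of 253. The Tg thy midpoints lay 27.4 and 30.2 kb from the first base of Bach1. Exon positions were not used here, so these places are given as inside the gene only.

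The pair ranked similarly high within each list. In the Tg thy list, 89.6% and 88.1% of all peaks scored lower than the first and the second. In the NKT list the shares were 91.3% and 92.0%. The order within the pair was opposite, the first peak scoring higher in the Tg thy list and the second in the NKT list, by margins that no replicate checks. Both NKT peaks lay wholly within their Tg thy counterparts, as in 64.2% of the 2603 overlapping pairs of the lists. The midpoints of the second site were 12 bp apart and those of the first 114 bp, where the median over all pairs was 63.5 bp (quartiles 28.0 to 122.0 bp). The NKT peak had 0.639 times the width of its partner at the first site and 0.911 times at the second. The median over all pairs was 0.609, and 85.9% of pairs had a lower ratio than the second site. Thus the second site was listed with nearly the same extent in both libraries, while the first reached further downstream in the Tg thy list.

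**Figure D1:**
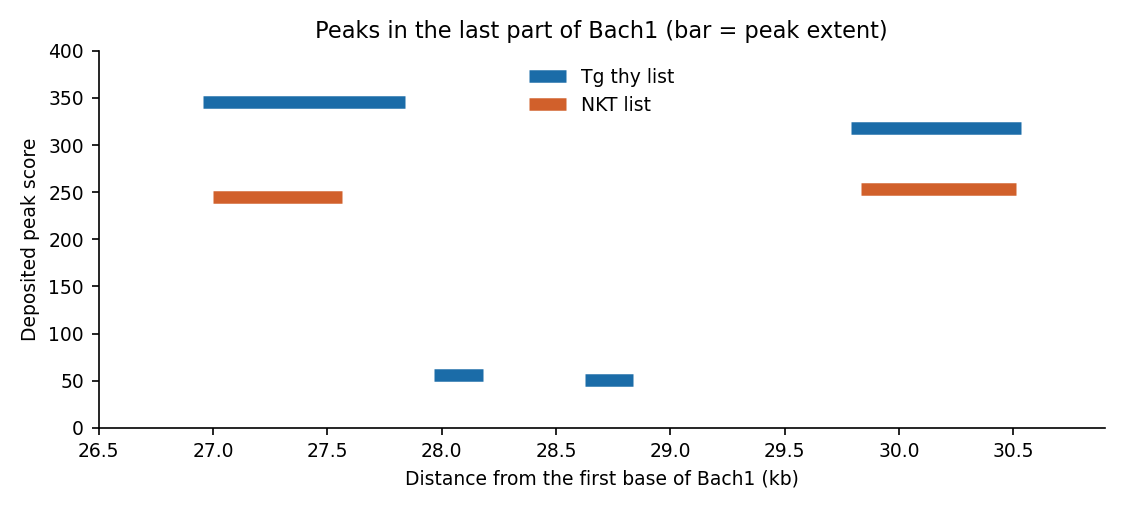
Peaks in the last part of Bach1, drawn to scale: the x axis is the distance from the first base of the gene in kb, the y axis the deposited score, and each bar the extent of 1 peak. Both lists have a peak at each end of the stretch (scores 345 and 318 in the Tg thy list, 245 and 253 in the NKT list), and the Tg thy list alone has a pair of low peaks between them.

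Between these sites the Tg thy list had another pair of peaks, both near the lowest score in the list, 50.03. They lay at chr16:87726921-87727135 (215 bp, score 56.0) and chr16:87727579-87727793 (215 bp, score 50.8). The NKT list had no peak there. In all, 4 Tg thy peaks fell within 3.58 kb and covered 57.5% of it, with gaps of 128, 443 and 951 bp. The 2 NKT peaks were 2.27 kb apart and covered 35.4% of their 3.51 kb. Such crowding was uncommon under a joining limit of 1 kb, which was chosen after seeing the data. With peaks less than 1 kb apart joined, the 5192 nuclear Tg thy peaks formed 4729 sites. Of these, 44 joined 3 or more peaks and 6 joined 4 or more. The 4 at Bach1 were joined only because their widest gap, 951 bp, was just under the limit.

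Near the start of Bach1 each list had 1 weak peak, at different places. The Tg thy peak lay just inside the gene at chr16:87700065-87700283 (219 bp, score 54.8), with its midpoint 1.22 kb past the first base. The NKT peak lay before the gene at chr16:87692007-87692161 (155 bp, score 52.0), 6.87 kb upstream. They were 7.90 kb apart. Of the Tg thy list, 8.68% of peaks scored lower than the first, and of the NKT list, 10.4% scored lower than the second, so both belong to the weakest part of their lists. Further upstream, outside any RefSeq gene, the Tg thy list had chr16:87654234-87654490 (257 bp, score 98.0) and chr16:87661539-87661927 (389 bp, score 101). They lay 44.6 and 37.2 kb before the gene and had no NKT counterpart. No peak of either list lay in the 50 kb after the gene, which hold the noncoding gene Gm32925 and the pseudogene Gm23994.

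**Figure D2:**
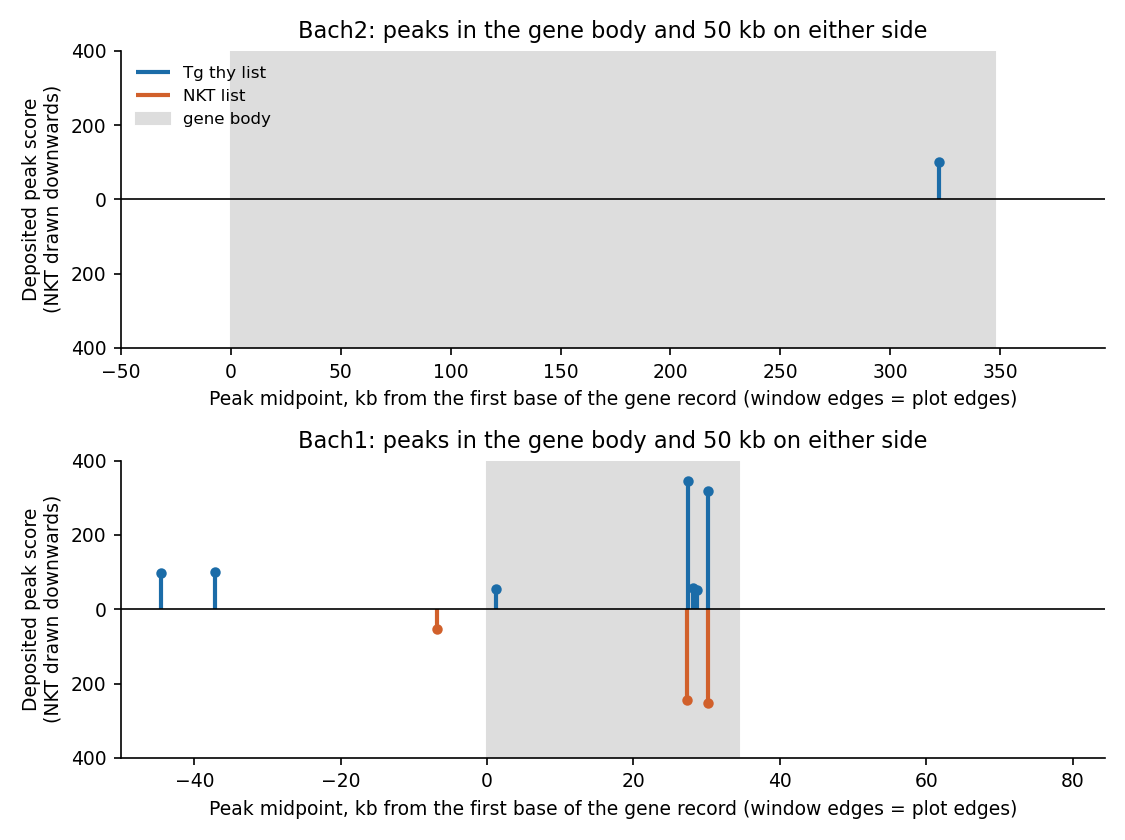
Peaks in the windows of Bach2 (top) and Bach1 (bottom): the x axis is the peak midpoint in kb from the first base of the gene record, and stem height is the deposited score, upwards for the Tg thy list and downwards for the NKT list. Grey marks the gene body. Bach2 has a single Tg thy stem at 322.1 kb (score 99.5), and at Bach1 the highest stems of both lists stand together near the end of the gene.

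At Bach2 (gene 12014, chr4:32238413-32586109, 347.7 kb, plus strand) the Tg thy list had 1 moderate peak and the NKT list had none. The peak was chr4:32560333-32560662, 330 bp wide with a score of 99.5. In its list, 44.2% of peaks scored lower and 35.8% were narrower. It lay late in the gene, 322.1 kb past the first base of the record, 143.1 kb past the listed start and 25.6 kb before the end. The same place lies within Bach2os (chr4:32559680-32571662), a noncoding RNA gene on the opposite strand, so the peak cannot be given to one gene rather than the other. The nearest NKT peak, chr4:32656998-32657181 (184 bp, score 63.0), was 96.3 kb away. It overlapped the promoter window of Mdn1, which encodes a ribosome assembly factor, and lay 21.0 kb beyond the window of Bach2. Gja10 and Casp8ap2, the other protein-coding genes reached by this window, added no peak to it. An absent peak says that no place passed the authors' threshold in that library, not that no PLZF was bound.

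The limit of 50 kb decided how many peaks were counted at Bach2. On the near side of the gene, the closest Tg thy peak left out was chr4:32164949-32165226 (278 bp, score 67.9), 73.3 kb before the gene and inside the noncoding gene Gm42266. On the far side the closest was chr4:32767875-32768588 in Mdn1 (score 216, and 65.2 for the NKT peak it overlapped), 182.1 kb after the gene. At Bach1 the limit mattered less. The counted peak nearest the edge, in the Tg thy list, was 5.41 kb within it, and the closest peak left out was 188.5 kb before the gene in both lists, at chr16:87510252-87510639 in the Tg thy list (score 348) and chr16:87510277-87510592 in the NKT list (score 236). On the other side the next peak of either list was in Tiam1, 2205 kb from the end of Bach1.

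Many genes had peaks in windows of this kind. At least 1 Tg thy peak was found for 30.3% of 21887 protein-coding genes and at least 1 NKT peak for 26.3%. Both lists had a peak for 20.6%, the class of Bach1. The Tg thy list alone had one for 9.7%, the class of Bach2, and the NKT list alone for 5.75%. A count as high as the 7 of Bach1 in the Tg thy list was reached by 0.448% of genes, and its 3 in the NKT list by 4.54%. With peaks under 1 kb apart joined, Bach1 had 4 and 3 sites, and 2.14% and 3.19% of genes had as many. Per length, the Bach1 window held 52.1 Tg thy peaks per Mb and 22.3 NKT peaks per Mb. All protein-coding windows joined held 2.75 and 2.19. The Bach2 window, over 3 times as long as that of Bach1 (447.7 and 134.4 kb), held 2.23 Tg thy peaks per Mb, close to that level. The Bach2 window held no NKT peak. Peak density was thus far above the general level at Bach1 in both lists and not at Bach2. These densities rest on few peaks (7 and 3 at Bach1, 1 and 0 at Bach2), some of those at Bach1 near the lowest score.

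**Figure D3:**
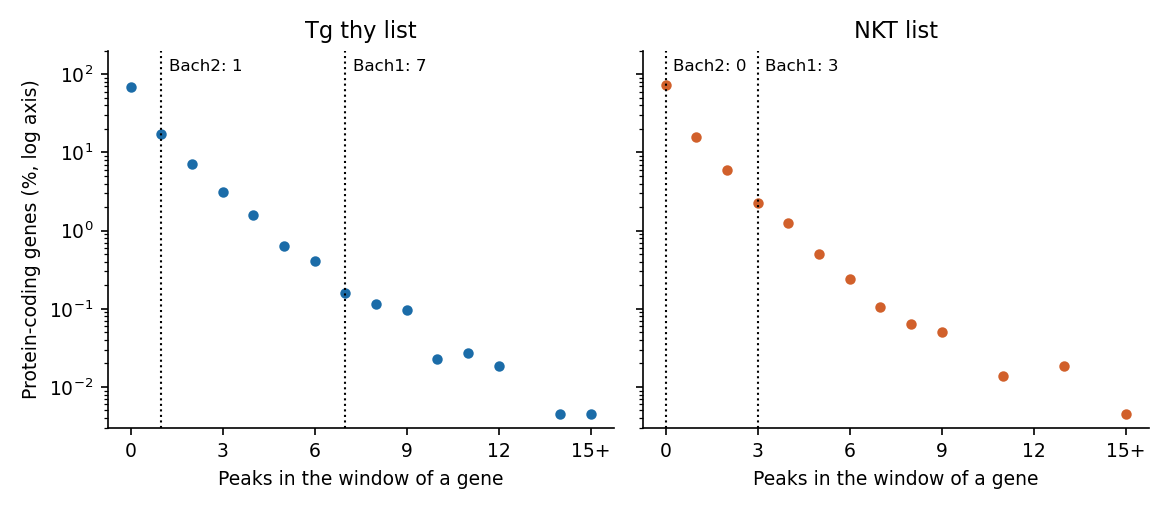
Share of protein-coding genes (y axis, percent, log scale) by the number of peaks in the gene body and 50 kb on either side (x axis; 15+ holds higher counts; counts that no gene had are not drawn), for each list. Dotted lines mark Bach2 (1 and 0 peaks) and Bach1 (7 and 3), and Bach1 lies in the sparse right part of the Tg thy distribution.

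Whether a member peak was shared followed its score, as over the whole lists. In all, 45.7% of Tg thy peaks overlapped an NKT peak by at least 1 bp, and 60.7% of NKT peaks overlapped a Tg thy one. Among the members these were 2 of 8 and 2 of 3. For the comparison below, peaks of like score are those of the same list within a factor of 1.1. Of the 577 Tg thy peaks scored like the one at Bach2, 31.7% were shared (exact 95% interval 27.9 to 35.7%, counting error only), so to be listed in 1 library alone was the more common state at this score. For the upstream Bach1 peaks the shares were 31.0% and 32.2%, and for the 3 weakest Bach1 peaks they ran from 15.6% to 16.0%. By contrast, of the Tg thy peaks scored like the strong Bach1 pair, 89.0% (83.7 to 93.1%) and 86.3% (80.8 to 90.7%) were shared. In the NKT list the shares were 97.1% and 98.4% for that pair and 31.7% for the weak upstream peak. Each member peak was thus in the state most common for its score. Depth, which moves both the score and the number of peaks called, is unknown here, and its part in these differences was not tested.

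**Figure D4:**
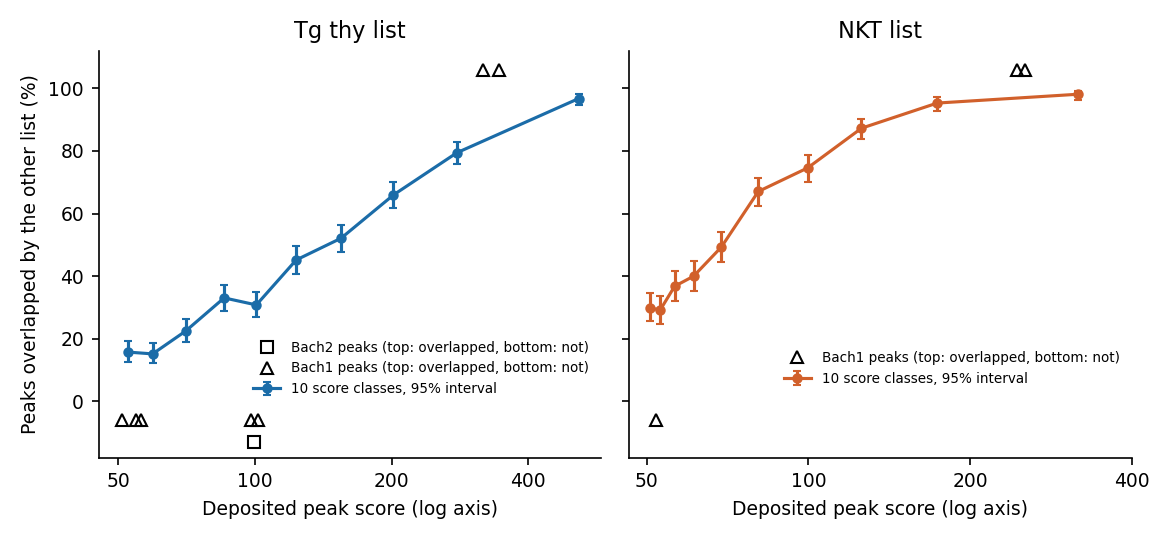
Percent of peaks that overlap a peak of the other list (y axis) in 10 classes of deposited score (x axis, log scale), with exact 95% intervals, for each list. Open symbols mark the member peaks at their scores, above the plot where the other list overlapped them and below where it did not: the 4 peaks of the strong Bach1 pair (2 in each list) are at the top, and the others, with Bach2 as the square, at the bottom.

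The genes that BACH factors work with were described by the same window rule. The lists were chosen from general knowledge with earlier results of these data known. Of 37 genes in 5 lists, 22 had a Tg thy peak (59.5%, against 30.3% of all genes) and 15 an NKT peak (40.5%, against 26.3%), 12 of them in both. Nothing particular to these lists follows from that, since gene activity and window length were not taken into account.

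Partners came first. Of 8 small MAF and CNC genes, 7 had a Tg thy peak and 5 an NKT peak. These were 87.5% and 62.5%, where 30.3% and 26.3% of all genes had one, and no test of this was run. Nfe2l2 encodes NRF2, the activator that competes with BACH1 for the same sites. Its only peak was inside the gene in both lists, chr2:75682766-75683433 with a score of 501 in the Tg thy list and chr2:75682878-75683329 with 231 in the NKT list. Maff, a small MAF partner, had 3 and 2 peaks. The highest lay at different but neighbouring places, 24.0 and 23.2 kb from the gene, with scores of 265 and 144. The highest NKT peak of Maff lay within another Tg thy peak, chr15:79322996-79323630, with a score of 241. Keap1, whose product marks NRF2 for degradation, had 1 peak in each list with scores of 226 and 67.9, but 48.9 and 48.8 kb away. The other small MAF genes, Mafk and Mafg, also had peaks in both lists, with highest scores of 87.4 and 113 in the Tg thy list and 138 and 86.1 in the NKT list. No Mafg peak was shared. Mafk had 1 shared site, but its highest NKT peak lay elsewhere, 24.3 kb from the gene, where the Tg thy peak lay 14.4 kb away. Nfe2 (85.2) and Nfe2l3 (60.9), further CNC factors, had a peak in the Tg thy list alone, and Nfe2l1 had none.

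Of 10 genes of the AP-1 family, whose products read a related motif, 7 had a Tg thy peak and 4 an NKT peak. These were 70% and 40%, where 30.3% and 26.3% of all genes had one, and no test of this was run. Only Fos and Fosb had peaks in both lists. Scores were moderate for Fosb and Fos. Fosb had highest scores of 144 and 126, both 34.9 to 35.0 kb away, and Fos had 114 and 141, 26.6 and 18.3 kb away. A peak was found only in the NKT list for Batf3 (109, at 35.5 kb) and only in the Tg thy list for Jund (94.5, at 24.6 kb). Batf2 (highest score 94.0) also had peaks in the Tg thy list alone, and Batf (69.9) in the NKT list alone. Jun (57.2), Junb (54.3) and Fosl1 (64.55) had only a low peak, in the Tg thy list alone. In that list 11.7%, 7.98% and 20.2% of peaks scored lower than these. Among 3 co-repressors and partners, Bcl6, which encodes a BTB zinc finger repressor that works with BACH2 in B cells, had 4 Tg thy and 2 NKT peaks. The highest were both inside the gene, at different places, with scores of 152 and 61.4. Ncor1, a nuclear co-repressor gene, had peaks in the Tg thy list alone (158, at 37.5 kb), and Hdac3 had none.

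Of 8 known BACH1 targets, 1 had a Tg thy peak (12.5%, where 30.3% of all genes had one) and 2 an NKT peak (25%, where 26.3% had one). The list is short, with 8 genes, and no test of this was run. Hmox1, the haem oxygenase gene that BACH1 is best known to repress, had none in either list, nor had Fth1, Nqo1, Gclm, Gclc and Txnrd1. The exception in both lists was Slc7a11, which encodes the cystine transporter subunit xCT. Its highest peak was chr3:50442310-50443049 in the Tg thy list (score 333) and chr3:50442454-50442950 in the NKT list (score 235), inside the gene. A neighbouring Tg thy peak, chr3:50443401-50443836 (score 135), reached over the listed start of Slc7a11. That start lies well inside the gene record, which runs from 50364936 to 50499087. No NKT peak reached this promoter window, the nearest being 0.614 kb away. The part before the start that the neighbouring Tg thy peak covers, chr3:50443614-50443836 on the minus strand of GRCm38.p6, is printed below. It was picked because, of the 30 genes in the 5 lists that the promoter table holds, Slc7a11 was the 1 whose window a peak of either list reached. The share of all promoter windows that a peak reached is not given here, so this count marks no trait of Slc7a11 or of the lists.
Slc7a11: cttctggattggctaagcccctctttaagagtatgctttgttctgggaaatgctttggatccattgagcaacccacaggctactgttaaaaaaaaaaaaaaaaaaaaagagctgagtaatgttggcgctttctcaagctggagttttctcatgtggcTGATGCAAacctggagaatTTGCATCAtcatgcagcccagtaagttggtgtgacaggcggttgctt
It holds no TGANTCA. The capitals mark TGATGCAA and its reverse complement TTGCATCA, the core of the amino acid response element through which ATF4 is known to act on this gene. This motif was chosen after the sequence was seen. One or more copies on either strand occurred in 0.895% of the 32851 promoter windows. Only 2 windows held 2 or more, that of Slc7a11 among them, and those of Bach1 and Bach2 held none. A match describes the letters and shows no factor at work. Ftl1, a ferritin chain gene, had peaks in the NKT list alone, the highest 3.0 kb away with a score of 56.4.

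Of 8 known BACH2 targets, 5 had a Tg thy peak (62.5%, where 30.3% of all genes had one) and 3 an NKT peak (37.5%, where 26.3% had one), and no test of this was run. Prdm1, which encodes BLIMP1 and is the best known target of BACH2 in lymphocytes, had a single site inside the gene. It was chr10:44447980-44448707 with a score of 689 in the Tg thy list and chr10:44447987-44448646 with 469 in the NKT list, where 97.5% and 98.0% of peaks scored lower. This was higher than any peak at Bach1 or Bach2 in the same list. Ccr4, a chemokine receptor gene of type 2 helper and regulatory T cells, had 4 and 3 peaks, the highest 46.7 kb away in each list with scores of 447 and 95.8. Il12rb1, a receptor chain for IL-12, had highest scores of 155 and 81.0 at 1.61 and 1.59 kb. Il1rl1 (96.7, at 10.4 kb) and Gata3 (53.2, inside the gene) had a peak in the Tg thy list alone. Neither list had a peak at the effector cytokine genes Ifng, Il4 and Il13.

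**Figure D5:**
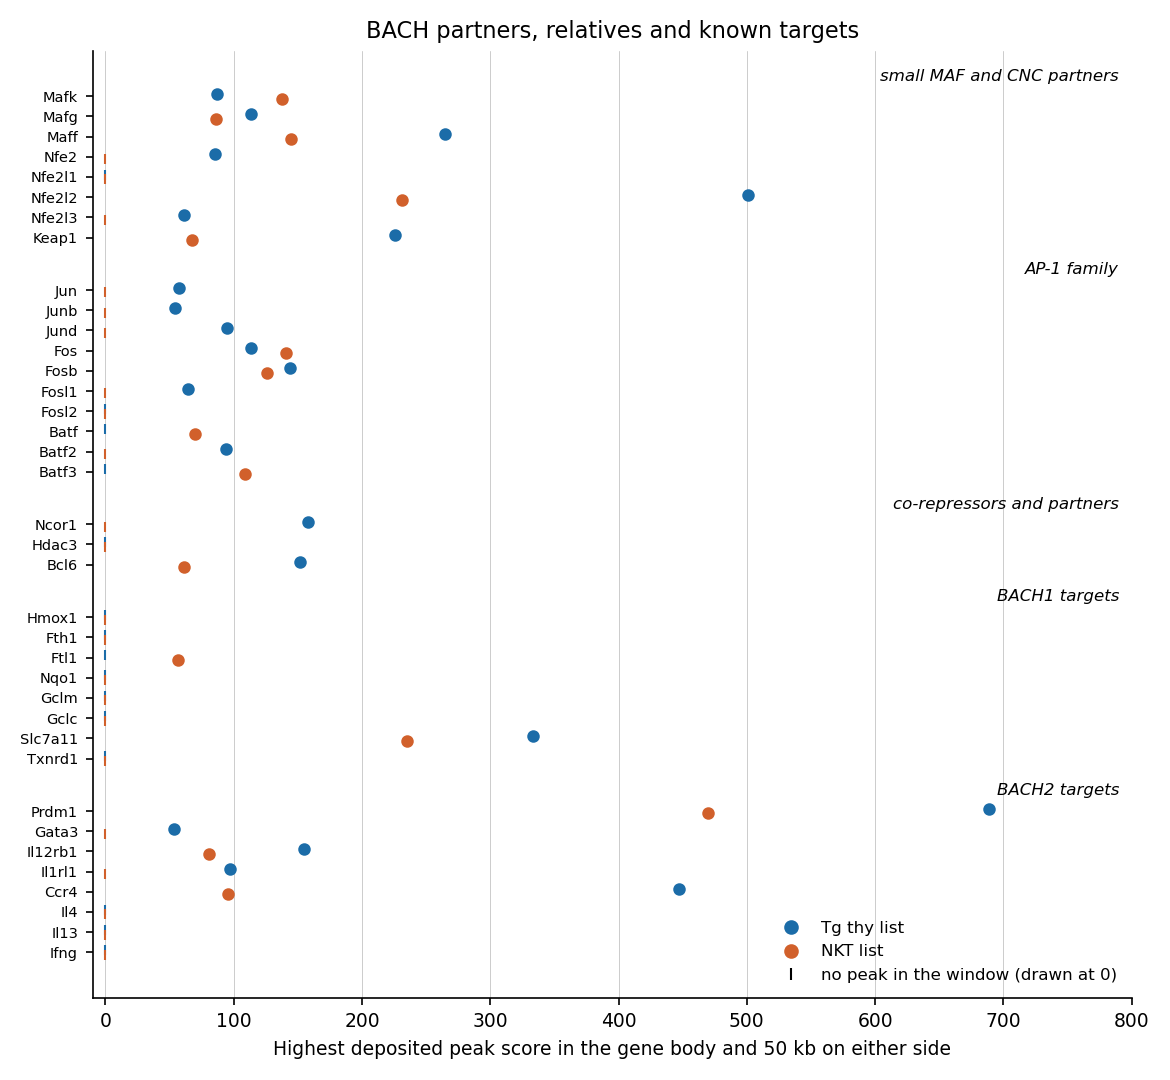
Highest deposited peak score (x axis) in the window of each of 37 genes in 5 lists, for the Tg thy list (blue) and the NKT list (orange), with ticks at 0 where no peak was listed. Prdm1 has the highest scores of both lists (689 and 469), and of the BACH1 targets only Slc7a11 has a peak in both.

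The genes whose counts were most like those of Bach1 and Bach2 were found over these 2 libraries only. For Bach2, 1731 other genes had 1 Tg thy and no NKT peak, and 19 of them had a window within 20% of its length. The nearest by highest score were Grik4 (91.9), Patj (89.4) and Kcnh8 (88.8). For Bach1, 7 other genes had 7 and 3 peaks, of which 2 had a window of like length. These were Scn4a, with highest scores of 295 and 197, and H2bc6, with 253 and 137. Their windows also hold other genes, and likeness in counts says nothing of shared control.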

How the data were processed

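Both files are peak lists with 5 columns and no header, 1 per ChIP library. The score in the last column is the value the authors deposited with each peak; neither header nor label says what it measures. The submitters' processing notes name Bowtie, Picard, HOMER and the build mm10, and per the peak names in the files the caller was of the MACS family. Versions, control and threshold: not given in the sources used here. The input libraries were not analysed here. Depth is unknown.

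Starts were raised by 1 base. Genes came from the RefSeq table of GRCm38.p6. Overlap of at least 1 bp counted as shared. No test was run, because each group had 1 library; exact binomial 95% intervals (scipy 1.17.1) cover counting error only. Functions were tested on simulated data. The genes, lists and rules were chosen with earlier results of these data known. Named genes were both members, up to 3 of each gene list with peaks in both libraries by Tg thy score and up to 2 in 1 library only (the highest by score), and the genes most alike in counts; others in the text were named after their values were seen. Protein sequences were not used here, and 1 gene of the lists is not reported here. Alternatives were windows of 0, 10 and 100 kb, any overlap with the window, higher score limits, stricter and looser sharing, and, chosen after seeing the data, joining peaks under 1 kb apart.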

Additional observations from a re-analysis of the deposited data

How the results depend on the processing

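Of 48 alternative values for 8 counts, 41 were within 1.5 times the value reported and 7 were not. Part of the 41 could not have moved. A count of 0 at Bach2 stays 0 with a narrower window, a stricter sharing rule or a higher score limit. The 41 therefore do not measure how robust the counts are. Windows of 100 kb raised the Bach2 count from 1 to 3 in the Tg thy list and from 0 to 1 in the NKT list, and none of these was shared. With a score of at least 100, or with the top 50% of each list, the Bach2 peak (99.5) was lost, leaving 0 in either list. The Bach1 count in the Tg thy list fell from 7 to 3 with a score of at least 100, to 2 with the top 50%, and to 4 with peaks under 1 kb apart joined, a setting chosen after seeing the data. The 2 shared Bach1 sites were counted under each sharing rule and score limit tried and in the 100 kb window; with midpoints within 1 kb, 3 Tg thy peaks counted as shared. No paired analysis was possible because each group had 1 library. Without depth or replicates, peaks near the lowest score cannot be told from chance calls.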

Other observations

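Bach2 lies in a long stretch of chromosome 4 without any NKT peak. The stretch ran from 17888501 to 32656998, 14.8 Mb that hold 32 whole protein-coding genes. Only 6 of the 4221 intervals between neighbouring nuclear peaks of the NKT list, this stretch included, were that long or longer (median 118 kb). The Tg thy list had 6 peaks in it, all unshared, with scores from 52.3 to 99.5 and a median of 62.1, and the one inside Bach2 was the highest of them. Around Bach1, by contrast, both lists had the same neighbours, and nothing else was listed between 87510639 and 89938266 on chromosome 16 than the peaks of its window.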
